A study of Mus musculus and Mus musculus
Rattus norvegicus with 30 samples.

Results

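The genes described here were Gata2, Gata3, Gata4, Gata5 and Gata6, 5 members of the GATA family of transcription factors, chosen by their symbols among the 34923 genes of the mouse RNA tables. The same 5 symbols were read from the 25245 genes of the rat annotation. Gata5 was not listed in the first of both mESC tables, which held 19919 genes, and it had too few counts to be tested in any comparison, so that 4 of the 5 members were tested throughout. Accessible regions and Cdx2-bound regions were taken within 30 kb of each gene's start or inside the gene.

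The series followed the response of pluripotent cells to the homeobox factor Cdx2 in 30 libraries. In mouse embryonic stem cells (mESCs), 20 poly(A) RNA libraries formed 10 groups of 2: WT, overexpressed mouse Cdx2 (mCdx2-OE), overexpressed rat Cdx2 (rCdx2-OE), and 7 rat Cdx2 mutants in which 3 amino acid changes of the DNA binding domain were placed singly (R1, R2, R3), in pairs (R12, R13, R23) or together (R123). Per the paper, these 3 changes set mouse Cdx2 apart from rat Cdx2 in that domain, so mCdx2 carries all 3. RMES cells, made by fusing a haploid mouse and a haploid rat embryonic stem cell, carried 1 chromosome set of each species and gave 4 RNA libraries, of which 2 were labelled WT, 1 was mCdx2-OE and 1 was rCdx2-OE, each counted on the mouse and on the rat allele. Accessibility (ATAC-seq) was measured in 1 WT and 1 mCdx2-OE library of mESCs, and Cdx2 binding (ChIP-seq) in 1 mCdx2 and 1 rCdx2 library of each cell type. Every transgene was delivered by lentivirus and switched on with doxycycline (DOX), so a group was a transduced population. The labels gave no age or sex, did not say whether WT cells were untransduced or uninduced, and did not say whether both libraries of a group came from separate cultures. The p-values therefore measure the spread between these libraries, which may be technical.

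GATA factors bind the DNA word GATA, with an A or T before it and an A or G after it, through zinc fingers and share conserved fingers while differing outside them. Gata2 and Gata3 are known for their work in the trophectoderm and its placental derivatives, and also in blood progenitors (Gata2) and T lymphocytes (Gata3). Gata4 and Gata6 are known as regulators of primitive endoderm, and Gata4, Gata5 and Gata6 as regulators of heart and gut development. Cdx2 is the homeobox factor that marks the trophectoderm, and its forced expression is a textbook way of turning embryonic stem cells towards trophoblast.

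The DNA under some of the Cdx2 ChIP peaks near the members is shown first, because the binding results below refer to it. No Gata6 peak is printed. Sequences were read from the GRCm38 (mm10) genome, plus strand, 5′ to 3′. Capitals mark the letters AATAAA or CATAAA on either strand, the core of the word preferred by Cdx2. The first sequence is the peak 23.2 kb downstream of the Gata2 start, in RMES cells at chr6:88216917-88217193, between genes. The second is the peak in an intron of Gata2, 10.1 kb downstream of the start in mESCs, at chr6:88203887-88204141. The third is the only peak found near Gata3, upstream of its start (−25.1 kb) and inside the gene Taf3, at chr2:9915002-9915288. The fourth is the central 300 bases of the peak in an intron of Gata4, 10.4 kb downstream of its start, at chr14:63261145-63261444.
Gata2 downstream peak: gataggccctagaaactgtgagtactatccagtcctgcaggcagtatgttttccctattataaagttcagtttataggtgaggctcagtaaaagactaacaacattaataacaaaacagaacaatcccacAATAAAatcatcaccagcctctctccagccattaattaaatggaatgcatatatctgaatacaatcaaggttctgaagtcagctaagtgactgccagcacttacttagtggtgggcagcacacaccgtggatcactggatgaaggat
Gata2 intronic peak: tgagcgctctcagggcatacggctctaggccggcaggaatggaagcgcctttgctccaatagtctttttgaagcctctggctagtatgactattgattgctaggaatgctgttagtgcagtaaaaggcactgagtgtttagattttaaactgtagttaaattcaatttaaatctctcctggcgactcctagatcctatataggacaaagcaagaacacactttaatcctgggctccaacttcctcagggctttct
Gata3 upstream peak: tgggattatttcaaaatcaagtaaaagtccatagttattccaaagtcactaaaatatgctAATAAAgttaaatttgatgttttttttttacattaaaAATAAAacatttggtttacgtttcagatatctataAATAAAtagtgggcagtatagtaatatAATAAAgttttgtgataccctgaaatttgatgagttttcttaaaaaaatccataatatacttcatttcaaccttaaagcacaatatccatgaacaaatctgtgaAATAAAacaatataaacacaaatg
Gata4 intronic peak: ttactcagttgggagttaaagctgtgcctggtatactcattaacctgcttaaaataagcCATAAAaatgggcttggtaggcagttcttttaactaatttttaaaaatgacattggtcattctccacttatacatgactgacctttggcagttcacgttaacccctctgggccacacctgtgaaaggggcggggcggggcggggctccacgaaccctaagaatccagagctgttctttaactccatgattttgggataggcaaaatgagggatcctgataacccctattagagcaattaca
The Gata2 downstream peak held the core word once, the Gata2 intronic peak did not hold it, the Gata3 peak held it 5 times and the Gata4 window once. Among central 300-base windows of all Cdx2 peaks, 87.2% held the core word in mESCs and in RMES cells alike, against 27.6% of 300-base RefSeq promoters. A longer word (G, then T or C, then A or C, then ATAAA, either strand, which contains the core word) stood in 27.2% of the windows in mESCs and 27.6% in RMES cells, and in 3.42% of promoters. Of the 4 sequences shown, the Gata4 window held it once and the others did not. A word is a description of the letters, not a site.

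RefSeq promoters of the same build, 300-base windows around a start, were found for Gata2, Gata3 and Gata5, and those of Gata2 and Gata3 are shown because their RNA and their ATAC peaks are compared below. None was found for Gata4, and Gata6 was not looked up. Capitals again mark the core word, and the strand is that of the gene. The Gata2 promoter of the first listed start lay at chr6:88193641-88193940 on the plus strand, and the Gata3 promoter at chr2:9878551-9878850 on the minus strand.
Gata2 promoter: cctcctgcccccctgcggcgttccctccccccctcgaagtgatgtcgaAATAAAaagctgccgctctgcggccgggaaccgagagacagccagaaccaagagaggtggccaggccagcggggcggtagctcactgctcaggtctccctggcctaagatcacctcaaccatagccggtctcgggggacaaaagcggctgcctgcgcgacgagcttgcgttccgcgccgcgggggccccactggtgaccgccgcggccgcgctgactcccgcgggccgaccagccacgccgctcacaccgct
Gata3 promoter: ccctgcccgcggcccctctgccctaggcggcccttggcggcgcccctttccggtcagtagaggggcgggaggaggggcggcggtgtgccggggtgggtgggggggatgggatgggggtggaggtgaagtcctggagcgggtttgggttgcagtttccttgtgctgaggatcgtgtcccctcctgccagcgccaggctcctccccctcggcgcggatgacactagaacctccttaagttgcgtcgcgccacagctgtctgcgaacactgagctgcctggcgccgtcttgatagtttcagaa
The Gata2 promoter held the core word once, and neither the Gata3 promoter, the Gata5 promoter nor the promoter of the second listed Gata2 start held it. Neither AGATAA nor TGATAA, words that GATA factors prefer, stood in any of these promoters on either strand, while 18.6% of all RefSeq promoters held at least 1 of them.

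Summed gene counts were 74960057 and 94695650 in the WT mESC libraries and 12698443 to 24315929 in the induced ones, and 36166038 to 41418817 on the mouse allele and 29453412 to 35249756 on the rat allele of the RMES libraries. Levels are given as CPM, read counts scaled to a common library total with TMM factors. The induced gene was read first. Cdx2 stood at 1.36 and 1.21 CPM in WT mESCs, at 97.9 and 127.4 in mCdx2-OE, at 70.4 and 67.0 in rCdx2-OE and at 37.2 to 146.6 in the mutants. In all 7 mutants replicate 1 held more Cdx2 than replicate 2, with 61.95 to 146.6 CPM against 37.2 to 68.8. In the RMES libraries labelled WT, Cdx2 already stood at 136.7 and 135.1 CPM on the mouse allele and 503.8 and 487.3 on the rat allele. The mCdx2-OE library held 1008 CPM on the mouse and 52.0 on the rat allele, and the rCdx2-OE library 4.60 and 978.5. The label WT of the RMES libraries was thus not matched by a low Cdx2 level. Each test of induction in RMES cells below is between induced libraries and libraries labelled WT. In these tests Cdx2 itself did not pass on the mouse allele (log2 1.93, SE 1.15, adjusted p = 0.136, edgeR quasi-likelihood test). It did not pass on the rat allele either (log2 0.06, SE 0.68, adjusted p = 0.942, same test). The sum of 6 pluripotency markers was 4485 to 4589 CPM in WT mESCs, 2375 to 2810 in mCdx2-OE and rCdx2-OE, and 2874 to 4004 in the mutants, but its members moved apart, with Pou5f1 lower in every induced group (means of 499.7 to 826.6 CPM against 1469 in WT) and Nanog higher (687.3 to 953.2 against 539.9). The sum of 6 feeder fibroblast markers was 37.1 to 38.2 CPM in WT, 16.1 to 19.9 with intact Cdx2 and 2.81 to 7.83 in the mutants. It too mixed directions, since Col1a1 went from 14.96 CPM in WT to 2.15 and 2.33 with intact Cdx2 and 0.937 to 2.69 in the mutants, whereas Pdgfrb went from 4.28 to 12.8 and 15.6 and to 2.06 to 4.36. Col3a1 was at 0.112 CPM or less in every induced group. The part of these shifts in the results below was not tested. In bulk RNA, fewer expressing cells and less RNA per cell cannot be told apart.

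In mESCs, induction of intact Cdx2 raised all 4 tested members, Gata2 by far the most. Gata2 had 2.14 and 1.82 CPM in WT, 75.02 and 74.93 in mCdx2-OE and 99.9 and 107.7 in rCdx2-OE. No induced library came near the WT ones, and the rCdx2-OE pair stood above the mCdx2-OE pair. The rise was 38.0-fold in mCdx2-OE (log2 fold change 5.25, SE 0.12, adjusted p = 1.34e-14, edgeR quasi-likelihood test, also used for the other comparisons) and 52.5-fold in rCdx2-OE (log2 5.71, SE 0.12, adjusted p = 6.24e-15). Gata2 ranked 263 of 16000 genes by size of change in mCdx2-OE and 203 in rCdx2-OE.

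Gata3 had 1.602 and 1.622 CPM in WT, 13.9 and 14.3 in mCdx2-OE, and 16.4 and 17.4 in rCdx2-OE. The 3 pairs did not overlap. Gata3 rose 8.73-fold in mCdx2-OE (log2 3.13, SE 0.17, adjusted p = 1.32e-10) and 10.5-fold in rCdx2-OE (log2 3.39, SE 0.17, adjusted p = 4.36e-11). Gata6 had 0.581 and 0.765 CPM in WT, 4.81 and 7.29 in mCdx2-OE, and 5.38 and 7.18 in rCdx2-OE. Its induced libraries all stood above WT, with mCdx2-OE and rCdx2-OE interleaved. Its rise was 8.71-fold in mCdx2-OE (log2 3.12, SE 0.25, adjusted p = 1.16e-08) and 9.05-fold in rCdx2-OE (log2 3.18, SE 0.25, adjusted p = 8.67e-09). Gata4 moved least, from 0.836 and 0.925 CPM in WT to 3.19 and 4.18 in mCdx2-OE and 3.08 and 3.999 in rCdx2-OE. That was a rise of 4.21-fold (log2 2.07, SE 0.23, adjusted p = 6.99e-07) and 4.06-fold (log2 2.02, SE 0.23, adjusted p = 9.35e-07), again with no overlap with WT. Thus 4 of 4 tested members were called higher (adjusted p under 0.05 and over 2-fold) with each intact factor, where 18.4% of the 16000 genes were called higher in mCdx2-OE and 19.0% in rCdx2-OE.

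Per kilobase of gene model, which allows levels of different genes to be compared, WT mESCs held 0.405 ± 0.0036 CPM of Gata3, 0.366 ± 0.042 of Gata2, 0.226 ± 0.016 of Gata4 and 0.211 ± 0.041 of Gata6 (SD, n = 2). The WT levels per kilobase of Gata2 and Gata3 thus lay close together, as did those of Gata4 and Gata6. Gata5 had 2 counts in the mCdx2-OE library of replicate 2 and 0 in its other 9 libraries. A limit of 3 counts corresponded there to 0.0317 CPM in WT and 0.145 to 0.231 CPM in the induced libraries, for counting error only, so a Gata5 response below that level was not detectable.

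**Figure D1:**
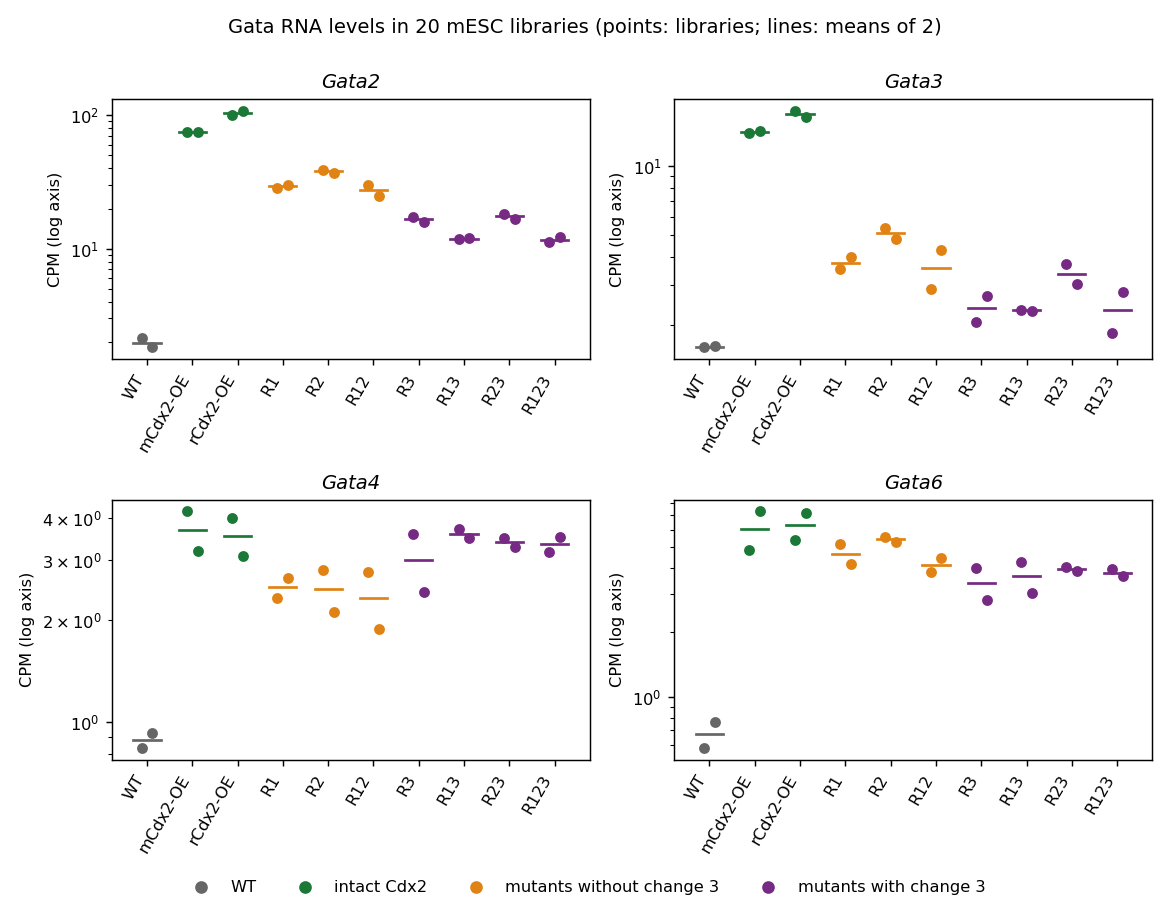
Level of Gata2, Gata3, Gata4 and Gata6 in the 20 mESC libraries, in CPM on a log axis, with 1 point per library and a bar at the mean of each group of 2. For Gata2 the points step down from rCdx2-OE (99.9 and 107.7 CPM) through the mutants to WT (2.14 and 1.82 CPM), while the Gata4 and Gata6 points of all induced libraries lie above those of WT with most groups overlapping.

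Mouse and rat Cdx2 were compared next. On the log2 scale, the mCdx2-OE minus rCdx2-OE difference was −0.47 for Gata2 (SE 0.10, adjusted p = 0.185, unadjusted p = 0.000172), −0.26 for Gata3 (SE 0.15), 0.05 for Gata4 (SE 0.23) and −0.06 for Gata6 (SE 0.23), with adjusted p of 1 for the last 3. No member passed, in a comparison where 3 of 16000 genes (0.0188%) did. At an unadjusted p under 0.05 there were 857 genes, with Gata2 as the single member. DESeq2 called 22 genes and Gata2 among them (log2 −0.47, adjusted p = 0.0137), so the call for Gata2 depended on the tool. Both Gata2 libraries of rCdx2-OE were above both of mCdx2-OE, although Cdx2 itself, counted on the mouse gene model, was lower there.

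The mutants separated the family. In the 7 mutants Gata2 rose 5.93 to 19.3-fold over WT, Gata6 5.00 to 7.89-fold, Gata4 2.61 to 4.05-fold and Gata3 1.44 to 3.12-fold. All 4 tested members were called higher in R1, R2, R12 and R23, where 10.1%, 10.6%, 10.6% and 13.8% of genes were called higher. In R3, R13 and R123, where the background was 12.2%, 13.6% and 14.0%, Gata2, Gata4 and Gata6 were called and Gata3 was not. Gata3 stayed under 2-fold there, with log2 changes of 0.57, 0.53 and 0.54 (SE 0.21 each) and adjusted p of 0.024, 0.0335 and 0.0356. The calls of Gata3 in R12 and R23 each rested on 1 library. Without R12 replicate 2 the log2 change was 0.85 in place of 1.16, and without R23 replicate 1 it was 0.92 in place of 1.05, both under 2-fold.

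The order of the Gata2 levels was rCdx2-OE (mean 103.8 CPM), mCdx2-OE (74.97), R2 (38.1), R1 (29.3), R12 (27.5), R23 (17.5), R3 (16.6), R13 (11.9), R123 (11.7) and WT (1.98). Libraries overlapped only between the neighbours R1 and R12, R23 and R3, and R13 and R123. Every mutant that carried change 3 thus stood below every mutant that did not. Its 2 libraries in R2 held 39.2 and 37.0 CPM, in R1 28.7 and 29.8, and in R12 30.2 and 24.7. Those with change 3 held 18.2 and 16.8 in R23, 17.3 and 15.8 in R3, 11.7 and 12.1 in R13, and 11.1 and 12.3 in R123. The highest library with change 3 was thus lower than the lowest library without it.

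The Gata3 order began in the same way, with rCdx2-OE (16.9 CPM), mCdx2-OE (14.1) and R2 (5.07), each apart from the next. R1 (3.76), R12 (3.58) and R23 (3.38) formed a chain of overlapping neighbours, R3 (2.39), R123 (2.33) and R13 (2.33) formed a lower one, and WT (1.61) was lowest and apart. For Gata4, mCdx2-OE (3.68 CPM), R13 (3.60), rCdx2-OE (3.54), R23 (3.39), R123 (3.34), R3 (3.00), R1 (2.50), R2 (2.46) and R12 (2.33) formed a chain in which each overlapped with the next, and only WT (0.881) stood apart. For Gata6, rCdx2-OE (6.28 CPM), mCdx2-OE (6.05) and R2 (5.40) overlapped, as did R1 (4.64), R12 (4.12), R23 (3.94), R123 (3.79), R13 (3.65) and R3 (3.41) with their neighbours, and WT (0.673) stood apart. A gap without overlap separated R2 from R1, although mCdx2-OE (4.81 to 7.29 CPM) overlapped with R1 (4.15 to 5.14 CPM).

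Taken as groups, the 7 mutants held less of all 4 tested members than mCdx2-OE and rCdx2-OE did, in a comparison where 33.4% of genes were called lower (adjusted p under 0.05) and 64.0% were called either way. Gata3 was 4.92-fold lower (log2 −2.30, SE 0.09, adjusted p = 2.42e-12) and Gata2 4.43-fold lower (log2 −2.15, SE 0.05, adjusted p = 5.76e-15). Gata6 was 1.49-fold lower (log2 −0.57, SE 0.13, adjusted p = 0.00108). Gata4 was 1.26-fold lower (log2 −0.34, SE 0.13, adjusted p = 0.0342), a call lost under DESeq2 (adjusted p = 0.057) and when any of 7 single libraries was left out (adjusted p from 0.05 to 0.279). These were replicate 1 of mCdx2-OE, rCdx2-OE or R123 and replicate 2 of R2, R3, R12 or R13. R123 was also set directly against mCdx2-OE, which carries the same changes, in a comparison added after the data were seen. There 22.3% of genes were called lower, and R123 held less Gata2 (log2 −2.68, adjusted p = 1.03e-10), Gata3 (log2 −2.59, adjusted p = 4.21e-08) and Gata6 (log2 −0.65, adjusted p = 0.0404), whereas Gata4 did not pass (log2 −0.16, adjusted p = 0.631). The mutant libraries may form a set of their own, made and sequenced together. The part of this in both comparisons, and in the order of levels above, was not tested.

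The 3 changes were then fitted as additive terms over the 16 libraries of rCdx2-OE and its mutants. In this fit rCdx2-OE was the only construct without a change. The mutants may have been made and sequenced together, and the part of this in the estimates was not tested. With change 3, Gata2 was 3.10-fold lower (log2 −1.63, SE 0.19, adjusted p = 8.54e-06), Gata3 2.42-fold lower (log2 −1.28, SE 0.29, adjusted p = 0.00236) and Gata6 1.37-fold lower (log2 −0.46, SE 0.13, adjusted p = 0.0106), where 18.4% of 15114 genes were lower and 18.2% were higher. Gata4 had a positive estimate for change 3 (log2 0.30, SE 0.15, adjusted p = 0.117) that passed without R3 replicate 2 (0.39, adjusted p = 0.0355) or without rCdx2-OE replicate 1 (0.40, adjusted p = 0.0305). For change 1, 0 genes passed with edgeR, against 1995 genes and 2 members at an unadjusted p under 0.05, and 24 genes with DESeq2. Its estimate was −0.91 for Gata2 (SE 0.19, adjusted p = 0.261, DESeq2 adjusted p = 0.00915) and −0.97 for Gata3 (SE 0.28, adjusted p = 0.297). For change 2, 0 genes passed with edgeR, against 1569 genes and 1 member at an unadjusted p under 0.05, and 2 genes with DESeq2. Its estimate for Gata2 was −0.44 (SE 0.19, adjusted p = 0.471).

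The additive form could be tested. A joint test of the interaction terms, added after the data were seen, passed for Gata2 (adjusted p = 2.59e-06) and Gata3 (adjusted p = 6.08e-05) but not for Gata4 (0.28) or Gata6 (0.436), where 28.9% of genes passed. In this fit the levels of Gata2 and Gata3 were thus not additive on the log2 scale. Since rCdx2-OE was again the only construct without a change, interaction of the changes and a difference between library sets cannot be told apart. Among the 14 mutant libraries alone, also an added fit, those with change 3 held less Gata2 (log2 −1.23, adjusted p = 3.15e-11), Gata3 (log2 −0.70, adjusted p = 0.000316) and Gata6 (log2 −0.36, adjusted p = 0.0167), where 25.2% of genes were called lower, and more Gata4 (log2 0.48, adjusted p = 0.00627), where 26.7% were called higher. Gata2 was lower there with change 1 (log2 −0.49, adjusted p = 0.00129) as 1 of 4 genes called lower (0.0272%). Cdx2 itself was lower with change 3 over the 16 libraries (log2 −0.74, adjusted p = 0.0367) and among the 14 mutant libraries (log2 −0.94, adjusted p = 0.00473). The part of that difference in the Gata results was not tested.

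**Figure D2:**
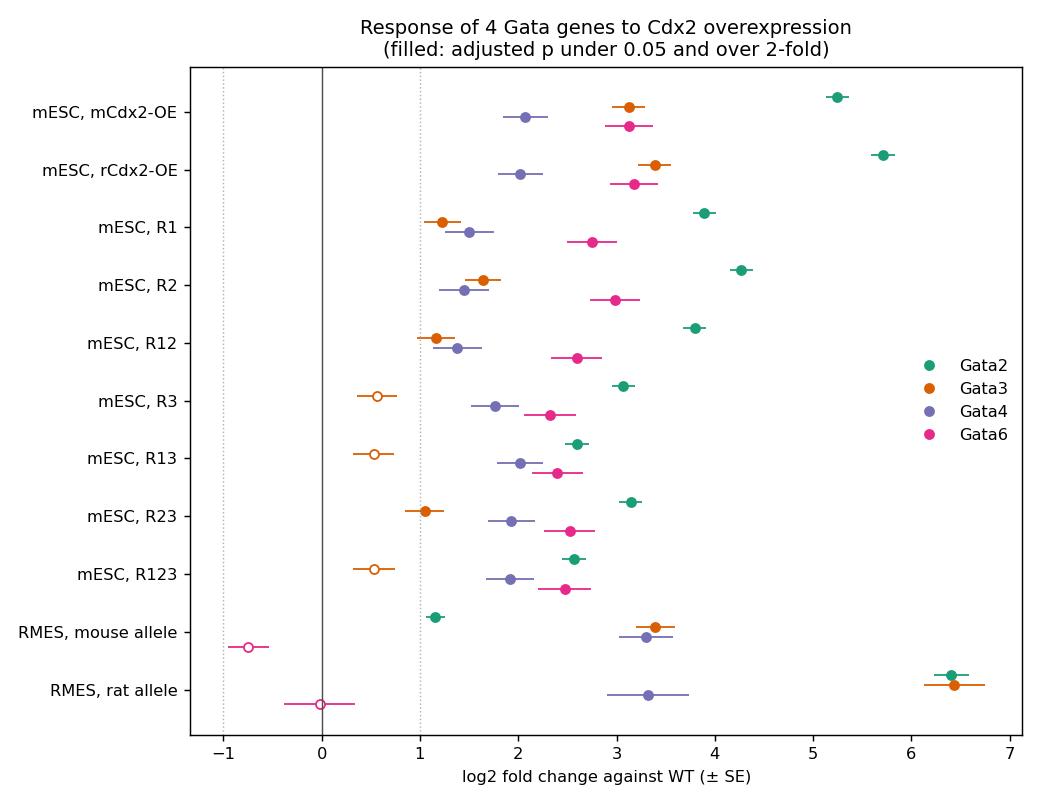
Fitted log2 fold change over WT of Gata2, Gata3, Gata4 and Gata6 for each of the 9 Cdx2 constructs in mESCs and for each allele of RMES cells, with bars of 1 SE, dotted lines at 2-fold and filled points for calls (adjusted p under 0.05 and over 2-fold). Gata2 runs from 5.71 in rCdx2-OE down to 2.57 in R123, Gata3 from 3.39 down to 0.53, and Gata4 keeps between 1.38 and 2.07.

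In RMES cells both genomes share 1 nucleus, and the members split by allele. In the libraries labelled WT, Gata2 was read almost wholly from the mouse allele, with 62.8 and 53.4 CPM (1924 and 1794 counts) against 1.14 and 1.85 CPM on the rat allele (28 and 50 counts). In mCdx2-OE it reached 114 CPM on the mouse and 109.5 on the rat allele, and in rCdx2-OE 138.6 and 146.7. The alleles were apart in the libraries labelled WT and close in the induced ones. The rat allele of Gata2 rose 84.9-fold (log2 6.41, SE 0.18, adjusted p = 1.02e-13) and the mouse allele 2.23-fold (log2 1.16, SE 0.10, adjusted p = 1.54e-07). From pooled counts scaled by totals alone, the rise of the rat allele was 98.4-fold, with an exact 95% interval of 78.8 to 125 that covers counting error only. Of the 4 tested members 3 were called higher on each allele, Gata2, Gata3 and Gata4, where 28.3% of 16887 genes on the mouse allele and 28.3% of 14627 on the rat allele were called higher.

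Gata3 stood at 1.18 and 1.73 CPM on the mouse allele of the libraries labelled WT and at 0.0814 and 0.148 on the rat allele, the latter from 2 and 4 counts. In mCdx2-OE it held 13.2 CPM on the mouse and 9.75 on the rat allele, and in rCdx2-OE 16.8 and 11.04. The induced libraries stood above those labelled WT on both alleles, without overlap. The mouse allele rose 10.5-fold (log2 3.39, SE 0.20, adjusted p = 6.19e-09) and the rat allele 86.7-fold (log2 6.44, SE 0.31, adjusted p = 3.97e-11). Because the rat allele rested on 6 counts over both libraries labelled WT, the exact interval of its pooled ratio (104-fold) was wide, 47.4 to 284.

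Gata4 was low on both alleles of the libraries labelled WT, with 0.359 and 0.476 CPM on the mouse allele and 0.203 and 0.185 on the rat allele. It stood at 4.22 (mCdx2-OE) and 3.91 CPM (rCdx2-OE) on the mouse allele and at 1.67 and 2.27 on the rat allele. Both alleles were higher in each induced library, by 9.84-fold on the mouse allele (log2 3.30, SE 0.27, adjusted p = 1.55e-07) and 10.0-fold on the rat allele (log2 3.32, SE 0.42, adjusted p = 2.39e-06). Gata6 was not called higher on either allele. Its mouse allele held 4.87 and 3.63 CPM in the libraries labelled WT, 2.41 in mCdx2-OE and 2.52 in rCdx2-OE (log2 −0.75, SE 0.21, adjusted p = 0.00494), a difference under 2-fold that was not counted as a call. Its rat allele held 0.692 and 0.961 CPM against 0.763 and 0.872 (log2 −0.02, SE 0.36, adjusted p = 0.964), with the induced values inside the range of those labelled WT.

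Per kilobase, the rat share of the Gata2 RNA was 2.79% and 5.20% in the libraries labelled WT and 60.3% and 62.6% in mCdx2-OE and rCdx2-OE. The rat share of Gata3 went from 9.37% and 11.4% to 52.4% and 49.5%. For Gata4 it was 39.7% and 31.1%, then 31.6% and 40.3%, and for Gata6 17.4% and 28.2%, then 31.9% and 33.8%. Gata2 thus moved from mostly mouse RNA to more rat than mouse RNA per kilobase. Gata3 moved from mostly mouse RNA to near-equal shares. The induced Gata4 shares stayed close to those of the libraries labelled WT. In a fit that kept each library as a block, the rat response exceeded the mouse response for Gata2 (log2 5.27, SE 0.13, adjusted p = 7.93e-18) and Gata3 (log2 3.09, SE 0.47, adjusted p = 9.64e-06), where 32.0% of 13629 genes had a larger rat response. The difference was 0.05 for Gata4 (SE 0.51, adjusted p = 0.954) and 0.74 for Gata6 (SE 0.41, adjusted p = 0.128).

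Between the alleles of the libraries labelled WT, where 41.5% of genes were called lower on the rat allele (adjusted p under 0.05), the rat allele was lower for Gata2 (log2 −5.26, SE 0.11, adjusted p = 8.37e-20), Gata3 (log2 −3.61, SE 0.43, adjusted p = 1.78e-07) and Gata6 (log2 −2.33, SE 0.28, adjusted p = 1.47e-07), and did not pass for Gata4 (log2 −1.10, SE 0.57, adjusted p = 0.082). Corrected for the lengths of the gene models, the mouse allele was 24.1-fold above the rat allele for Gata2, 8.19-fold for Gata3, 3.40-fold for Gata6 and 1.84-fold for Gata4. Rpn1, a gene beside Gata2 in the mouse genome that was picked after its values were seen, held 249.2 to 262.2 CPM on the mouse allele and 344.2 to 383.7 on the rat allele over the 4 libraries. The near-absence of rat Gata2 counts thus did not extend to this neighbour. Reads were given to the allele with the smaller edit distance, and how ties were treated is not given in the sources used here. Gata5 had 0 and 0 counts on the mouse allele and 2 and 0 on the rat allele in the libraries labelled WT, and 7 (mouse) and 3 (rat) in mCdx2-OE and 4 and 7 in rCdx2-OE, too few to test.

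**Figure D3:**
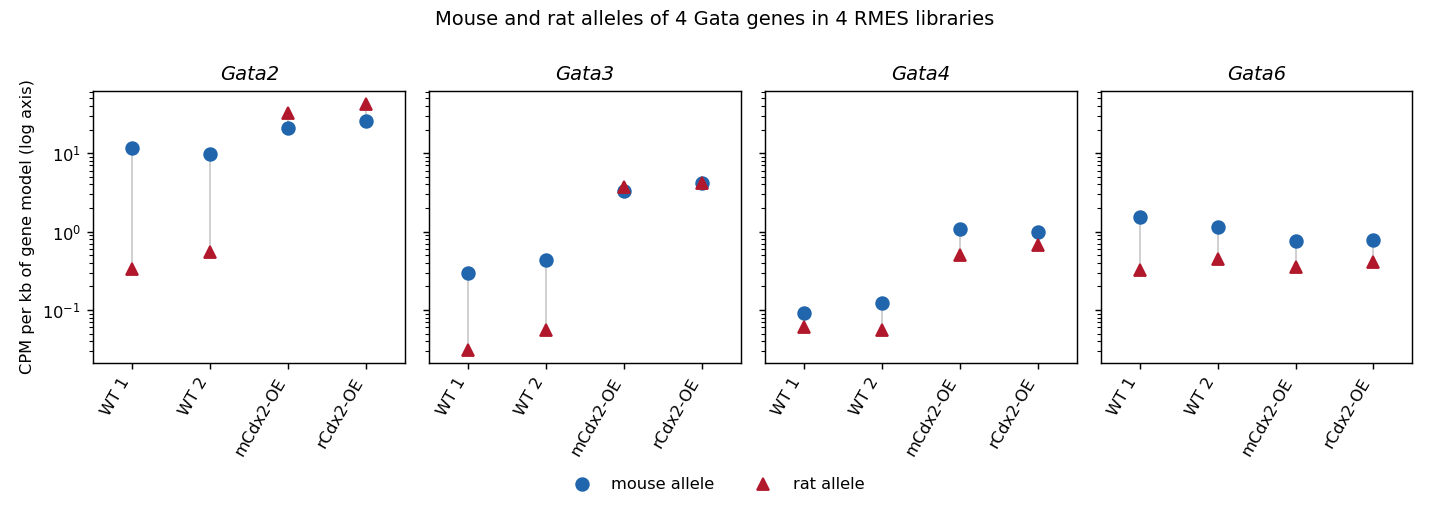
Level of each member on the mouse and on the rat allele of the 4 RMES RNA libraries, in CPM per kilobase of gene model on a log axis, with 1 point per library. The rat points of Gata2 and Gata3 lie far below the mouse points in the libraries labelled WT. In mCdx2-OE and rCdx2-OE the rat points lie near the mouse points for Gata3 and above them for Gata2. Both alleles of Gata4 are higher there than in the libraries labelled WT, and those of Gata6 are not.

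The starting level of the mouse allele differed between cell types. Against WT mESCs, the mouse allele of the RMES libraries labelled WT held 27.8-fold more Gata2 (log2 4.80, SE 0.11, adjusted p = 4.8e-09) and 5.88-fold more Gata6 (log2 2.56, SE 0.24, adjusted p = 1.73e-05), where 13.7% of genes were called higher. It held less Gata4 (log2 −1.15, SE 0.31, adjusted p = 0.00835), where 19.6% were called lower, a call lost without RMES WT replicate 1 (log2 −0.97, adjusted p = 0.0456, under 2-fold). Gata3 did not pass (log2 −0.23, SE 0.23, adjusted p = 0.387). Cdx2 was higher too in these libraries (log2 6.64, adjusted p = 1.54e-10), and its part in the Gata2 and Gata6 levels was not tested. The response of the RMES mouse allele minus that of mESCs, an interaction term added after the data were seen, was −4.38 for Gata2 (SE 0.26, adjusted p = 9.36e-08), −3.94 for Gata6 (SE 0.34, adjusted p = 1.67e-06), 1.21 for Gata4 (SE 0.34, adjusted p = 0.00976) and 0.09 for Gata3 (SE 0.26, adjusted p = 0.784), where 25.7% of 17912 genes were lower and 27.5% higher. Cell type and library set cannot be told apart in this comparison, since each cell type was counted in its own table.

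Accessibility near the members was read from 1 WT and 1 mCdx2-OE library, so the values compare those libraries and no test was run. The WT count column was identified because only the other column named mCdx2. Near the 5 members lay 36 ATAC peaks, of which 28 held at least 40 reads after scaling to equal totals. Of these, 3 were more than 2-fold more open in mCdx2-OE and 1 was more than 2-fold less open, where 13.7% and 20.5% of 85394 peaks of that depth were. The largest change was in an intron of Gata6, 9.09 kb downstream of its start, where 1 read in WT stood against 76 in mCdx2-OE (log2 ratio 4.94 after adding 1 to the scaled reads, exact 95% interval 3.29 to 11.13 for counting error only). This ratio was at the 99.9 percentile of all peaks of that depth. A second intronic peak of Gata6, 13.3 kb downstream, held 4 and 24 reads, under the depth limit. At the Gata6 start itself, 87 reads stood against 142 (log2 0.27).

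In Gata4 the peak with the largest change lay in an intron, 10.3 kb downstream of the start, with 2 reads in WT and 41 in mCdx2-OE (log2 3.45, interval 1.97 to 7.01), and its scaled total of 38.0 was just under the depth limit. Another, 30.9 kb downstream and overlapping an exon, held 32 and 92 reads (log2 1.07, interval 0.49 to 1.71). In Gata2 the peak 10.4 kb downstream of the start, which overlapped an exon, opened from 55 to 154 reads (log2 1.04, interval 0.59 to 1.52), whereas the peak over the start held 102 and 134 (log2 −0.04). That start peak covered the Gata2 promoter printed above. Thus the peaks that opened more than 2-fold lay inside the genes, and those over the starts of Gata2 and Gata6 did not pass. No ATAC peak lay over the Gata4 start, which was the outer end of the annotated gene. No RefSeq promoter was found to set beside it. The ATAC peak 26.01 kb into Gata4 overlapped an exon and a Cdx2 peak, and held 93 and 161 reads (log2 0.35, interval −0.02 to 0.74).

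Of the 10 ATAC peaks near Gata3, 9 held at least 40 scaled reads and none of these passed 2-fold, while Gata3 RNA rose 8.73-fold in mCdx2-OE. The peak over the Gata3 promoter printed above, 11.04 kb into the annotated gene, held 209 reads in WT and 262 in mCdx2-OE (log2 −0.11, interval −0.38 to 0.16), and the peak over the annotated gene start held 87 and 121 (log2 0.04). Both were open before induction. Near Gata5, the peak 14.3 kb downstream went from 34 to 19 reads (log2 −1.23, interval −2.17 to −0.43) and the peak over the start held 64 and 80 (log2 −0.12).

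The authors called Cdx2 peaks once for both constructs, on pooled reads, and 11 lay near the members in mESCs. Gata4 had 6, Gata2 and Gata6 had 2 each, Gata3 had 1 and Gata5 had none, so that 4 of 5 members had at least 1, where 78.7% of 15911 protein-coding genes did. The peak with the most reads lay in an intron of Gata6, 8.71 kb downstream of its start, with 582 reads in the mCdx2 and 494 in the rCdx2 library. It was at the 99.9 percentile of all 91665 peaks and overlapped the intronic ATAC peak that opened from 1 to 76 reads. Its 1305 bases held the core word 9 times and the longer word 2 times. The assignment of the count columns to mCdx2 and rCdx2 was inferred from their abbreviated names.

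In Gata4 the peak 10.4 kb downstream, whose centre is printed above, held 134 (mCdx2) and 147 (rCdx2) reads, at the 92.1 percentile, and overlapped the ATAC peak that went from 2 to 41 reads. Its 712 bases held 4 GATA words (AGATAA or TGATAA, either strand), of which 1 lay in the central 300 bases, where 47.2% of central windows of all mESC peaks held at least 1. A peak upstream of Gata4 (−29.45 kb) held 128 and 120 reads. Near Gata2, the downstream peak at 23.2 kb held 66 and 65 reads, and the intronic peak at 10.1 kb held 12 and 34. The latter overlapped the Gata2 ATAC peak that passed 2-fold. It was the single peak of the 11 that differed over 2-fold between rCdx2 and mCdx2 (log2 1.59 after scaling), where 0.912% of all peaks did. With 1 library each, that difference could not be tested, and the peak, at the 10.6 percentile, was among the weakest. The Gata3 peak, upstream in Taf3 (−25.1 kb), held 24 and 27 reads, at the 16.5 percentile. Peaks of at least 100 reads stood near Gata2, Gata4 and Gata6, 3 of 5 members, where 50.9% of genes had 1. An ATAC peak that passed 2-fold and overlapped a Cdx2 peak stood in Gata2 and Gata6, 2 of 5 members, where 25.4% of genes had 1.

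On the mouse genome of RMES cells 9 Cdx2 peaks lay near the members, 5 at Gata4, 3 at Gata6 and 1 at Gata2, so that 3 of 5 members had a peak, where 68.9% of genes did. All 9 overlapped an mESC peak. The Gata6 peak at 8.98 kb held 187 (mCdx2) and 126 (rCdx2) reads, at the 97.4 percentile of 74650 peaks, the Gata4 peak at 10.4 kb held 124 and 78, and the Gata2 peak at 23.2 kb held 49 and 30. No peak near a member differed over 2-fold between both libraries after scaling, where 2.08% of all peaks did. The intronic Gata2 peak and the Gata3 peak of mESCs were not called in RMES cells. Gata6 thus had Cdx2 peaks on the mouse genome in cells where neither of its alleles was called higher than in libraries labelled WT. Those libraries already held Cdx2 at 136.7 and 135.1 CPM on the mouse allele. Their mouse allele also held 5.88-fold more Gata6 than WT mESCs. Binding on the rat genome was not analysed here.

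**Figure D4:**
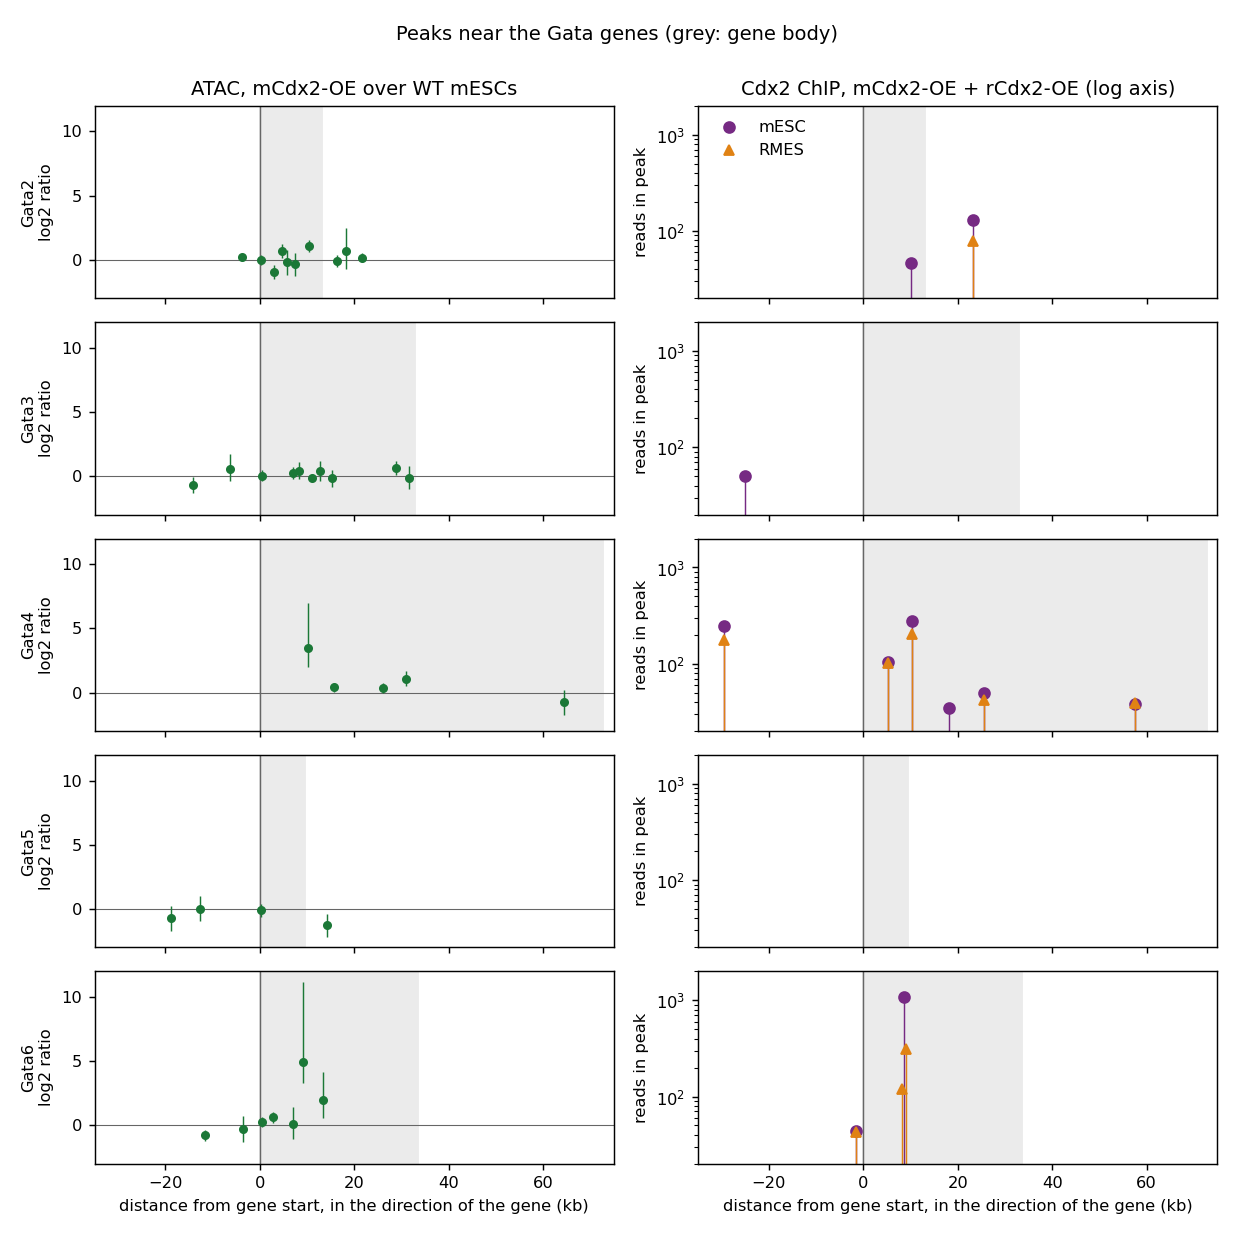
ATAC and Cdx2 ChIP peaks by distance in kb from the start of each Gata gene, with the gene body in grey. ATAC points give the log2 ratio of mCdx2-OE over WT scaled reads with exact 95% intervals for counting error, and ChIP marks give the summed reads of both libraries on a log axis. The intronic ATAC peaks of Gata6 at 9.09 kb and Gata4 at 10.3 kb stand highest and coincide with the Cdx2 peaks of 1076 and 281 reads.

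Genes known to work with or under GATA factors were read from 5 lists. Of 12 GATA partners 9 were tested, and 3 rose and none fell in mCdx2-OE, where 18.4% of all genes rose and 15.0% fell (list median log2 0.01, against −0.03 over all genes). These were Hand2 (log2 2.56, SE 0.42), a helix-loop-helix partner in the heart, Zfpm1 (log2 2.02, SE 0.14), the cofactor known as FOG1, and Lmo2 (log2 1.68, SE 0.32), a bridging protein of blood cell complexes. On the RMES mouse allele, where 28.3% of genes rose and 16.1% fell, 1 of 8 tested partners rose and 2 fell. Zfpm1 rose (log2 1.74), Lmo2 fell by 3.28 on the log2 scale, and Zfpm2, a cofactor related to Zfpm1, fell by 3.75. On the rat allele, where 28.3% rose and 14.2% fell, 3 of 8 rose, among them Zfpm1 (1.79), and none fell. Of 13 trophectoderm genes 11 were tested, and 7 rose and none fell in mCdx2-OE (median 2.46), while 7 rose and 1 fell in rCdx2-OE, where 19.0% of all genes rose and 15.4% fell. In the mutants against the intact factors, where 33.4% of all genes were lower and 30.6% higher, 8 of 11 were lower and 2 higher (median −1.48, against −0.01). Pparg, a nuclear receptor of the placenta, rose by 5.86 (SE 0.50) in mCdx2-OE and by 6.78 and 7.03 on the mouse and rat alleles. Krt18, a keratin of the trophectoderm, rose by 4.68 (SE 0.12) in mCdx2-OE and by 7.88 on the mouse allele, and had 0.27 on the rat allele. Eomes, of the same list, had −0.75 (SE 0.14) in mCdx2-OE and fell by 1.22 on the log2 scale in rCdx2-OE. Tfap2c had 0.004 (SE 0.08) in mCdx2-OE. On the RMES mouse allele 7 of 11 tested trophectoderm genes rose and 1 fell (median 2.66), against 28.3% and 16.1% of all genes. On the rat allele 8 of 12 rose and 1 fell (median 3.09), against 28.3% and 14.2%.

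Of 14 endoderm genes 13 were tested, and 6 rose and none fell in mCdx2-OE (median 0.91), where 18.4% of all genes rose and 15.0% fell. In rCdx2-OE 7 rose and none fell, where 19.0% rose and 15.4% fell. In the mutants against the intact factors 6 were lower and 2 higher (median −0.52), where 33.4% of all genes were lower and 30.6% higher. Dab2, an endocytic adaptor of primitive endoderm, rose by 2.52 (SE 0.14) and fell by 0.51 on the log2 scale in the mutants against the intact factors. On the RMES mouse allele, where 28.3% of all genes rose and 16.1% fell, 8 of 12 endoderm genes rose and 2 fell (median 1.95, against 0.08 over all genes). On the rat allele 4 of 13 rose, a share near the 28.3% of all genes there, and 4 fell, where 14.2% did (median −0.34, against 0.07). The sum of 5 primitive endoderm markers was 4.73 to 4.91 CPM in WT mESCs, 16.6 to 23.2 with intact Cdx2 and 11.5 to 19.4 in the mutants, and most of it was Dab2 (means of 2.46 CPM in WT, 14.2 and 18.3 with intact Cdx2, and 9.86 to 14.2 in the mutants).

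Of 12 blood and endothelial genes 9 were tested in mESCs, and 5 rose and 1 fell in mCdx2-OE (median 1.68), where 18.4% of all genes rose and 15.0% fell. Cbfa2t3, a corepressor found with Gata2 in blood progenitors, rose by 4.15 (SE 0.38) and was lower by 2.57 on the log2 scale in the mutants. Nfe2, an erythroid leucine zipper factor, rose by 2.13 (SE 0.22), and its value between mutants and intact factors was 0.20 (adjusted p = 0.176). On the RMES mouse allele 1 of 9 tested genes of this list rose and 3 fell (median −0.52), where 28.3% of all genes rose and 16.1% fell. On the rat allele 5 of 10 rose and 1 fell (median 1.29), where 28.3% rose and 14.2% fell. Nfe2 fell by 1.79 on the log2 scale on the mouse allele and rose by 2.52 on the rat allele, while Cbfa2t3 rose on both (3.65 and 3.91). Hhex fell by 1.04 on the log2 scale (SE 0.21). Of 10 cardiac and mesoderm genes 4 were tested, and 2 rose and 1 fell in mCdx2-OE (median 1.11), against the same shares of 18.4% and 15.0%. These were Hand2, which also stands among the partners, Tbx20 (log2 1.68, SE 0.17), a T-box factor of the heart, and Bmp4, a growth factor that fell by 3.59 on the log2 scale (SE 0.26). None of the 4 passed the test between the mutants and the intact factors, where 64.0% of all genes did.

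The genes whose levels ran most like a member's over the 18 induced mESC libraries were sought among the 11897 genes that averaged 50 counts or more. The libraries share their Cdx2 constructs and tables, so these correlations describe a common order of libraries only. For Gata2 they were Dsc2 (Pearson r 0.99 over the 18 libraries, 0.99 over all 20), Dctn1 (0.99 and 0.11) and Igf2os (0.99 and 0.96). For Gata3 they included F3 and Prickle1 (0.98 each, and 0.98 over all 20). For Gata4 they were Pmepa1 (0.90 and 0.38), Tmem94 (0.87 and 0.09) and Tmem9 (0.87 and 0.44), and for Gata6 Smad5 (0.93 and 0.93), Laptm4a (0.91 and 0.68) and Tmem131 (0.91 and 0.80). The genes most like Gata4 among induced libraries thus did not keep that likeness once WT was included.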

How the data were processed

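RNA was measured in 20 mESC and 4 RMES libraries. Per the study's methods, the authors aligned reads with STAR (2.7.0d) to mm10, or for RMES cells to mm10 and rn6 with assignment by edit distance, and deposited raw counts per gene. ATAC and ChIP reads were aligned with Bowtie2 (2.3.4.3), peaks were called with MACS2 on merged libraries, and the authors deposited raw read counts per peak. Replicate 1 of the mESC tables listed 19919 genes, all of which were in replicate 2, and mESC fits used these. Another 2 per-sample columns, of ChIP counts on the rat genome, were not used. The deposited tables hold no normalized values.

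Genes were filtered by filterByExpr, scaled by TMM and tested with the quasi-likelihood test of edgeR 4.0.16 (R 4.3.3) with Benjamini-Hochberg adjustment over all genes tested. Fits against WT and the mutant comparison shared the 20 mESC libraries; the changes were fitted on 16, and the alleles of RMES cells in separate tables and together with the library as a block. In RMES cells mCdx2-OE and rCdx2-OE served as 2 induced libraries. A call needed an adjusted p under 0.05 and, against WT, over 2-fold. The fits were tested on simulated data. Gene positions came from GENCODE M21. ATAC and ChIP counts were scaled to the mean total, 1 was added before log2, and intervals (exact binomial, 95%) cover counting error only.

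Alternatives were RLE and unscaled totals, no filter, DESeq2 1.42.0, no fold threshold, a replicate block, other windows and depth minima, and leaving out each library. Members, gene lists and rules were chosen with earlier results of these data known. Named were all members, from each list the largest rises and falls (at most 2 each way) in mCdx2-OE, and the 3 genes most like each member by Pearson correlation of log2(CPM + 0.5). Of the genes so chosen, 2 are not reported here. Lmo2, Zfpm2, Rpn1 and the marker genes fell outside this rule and were named after their values were seen.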

Additional observations from a re-analysis of the deposited data

Results flagged for a closer look

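Differences between responses were tested as interaction terms with edgeR. The rat allele of RMES cells responded more than the mouse allele for Gata2 by 5.27 and for Gata3 by 3.09 on the log2 scale, with the rat allele from 28 and 50 counts (Gata2) and 2 and 4 counts (Gata3) in the libraries labelled WT. In mCdx2-OE and rCdx2-OE the rat share per kilobase was 60.3% and 62.6% for Gata2 and 52.4% and 49.5% for Gata3. The response of the RMES mouse allele minus that of mESCs was −4.38 for Gata2 and −3.94 for Gata6, genes whose mouse allele already stood above the mESC level in the libraries labelled WT, and 1.21 for Gata4, which started below it. Cdx2 stood high in the RMES libraries labelled WT, and its part in these differences was not tested. No group had 4 or more libraries, so single libraries were not examined for outliers within a group.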

How the results depend on the processing

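Of 456 values of single members under other settings 441 kept their direction and side of the threshold, as did 479 of 504 with 1 library left out. All 18 values that changed sign had not passed the test. Under library totals alone these were Gata6 on the RMES rat allele (0.19) and Gata4 between alleles (−0.21). Among the 14 mutant libraries they were Gata4 for change 1 (0.077) and Gata3 (0.15) and Gata6 (0.071) for change 2. Leaving out 1 library gave ranges of −0.52 to 0.020 for Gata3 between RMES and mESC WT, −0.24 to 0.30 for Gata4 between alleles, −0.18 to 0.0038 for Gata4 and −0.11 to 0.038 for Gata6 under changes 1 and 2, −0.24 to 0.24 for Gata6 on the rat allele, and −0.17 to 0.28 for Gata4 and −0.36 to 0.24 for Gata6 between mCdx2-OE and rCdx2-OE.

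The 3 genes called between mCdx2-OE and rCdx2-OE became 1 under library totals, 1 without a filter, 22 with DESeq2 (1 member) and 0 to 1 without single libraries. For change 1, 0 genes became 1 without a filter, 24 with DESeq2 (1 member), 4 among the 14 mutant libraries (1 member) and 0 to 2 without single libraries, and for change 2, 2 with DESeq2. Without the fold threshold, calls against WT numbered 11158 in mCdx2-OE, 11294 in rCdx2-OE, 9728 in R1, 9743 in R2, 10189 in R3, 9870 in R12, 10477 in R13, 10635 in R23 and 10682 in R123, and 13823 and 12069 on the RMES mouse and rat alleles. R123 against mCdx2-OE alone gave 6785. Deviations of same-numbered libraries correlated over 0.1 in 22 of 45 pairs of groups (from −0.16 to 0.57), and in no pair with WT (−0.14 to −0.02), so the numbers were not taken to pair all groups. With a replicate block 1 gene was called between mCdx2-OE and rCdx2-OE, and no member's call changed.

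Scaling by totals alone moved the median log2 change of all genes to 0.499 on the RMES mouse allele and 0.285 on the rat allele (0.08 and 0.07 with TMM) and to 0.156 and 0.15 in mCdx2-OE and rCdx2-OE. ATAC peaks passing 2-fold near members were 7 higher and 12 lower within 100 kb, 7 and 0 without scaling, and 0 lower within 10 kb or at 100 reads. Cdx2 peaks were 29 in mESCs and 21 in RMES cells within 100 kb, and 5 and 5 at 100 reads, and 1 RMES peak differed over 2-fold without scaling. With 1 library per condition, peaks had no replicate check, and Gata5 and the rat allele of Gata3 in the libraries labelled WT were limited by depth.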

Other observations

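Within 100 kb of the Gata3 start 10 Cdx2 peaks lay in mESCs and 6 on the mouse genome of RMES cells, where the window of 30 kb held 1 and 0. The strongest stood upstream of the start (−44.1 kb), with 444 reads over both mESC libraries and 163 over both RMES libraries. Taf3, the gene next to Gata3 on that side, was 0.13 (log2) in mCdx2-OE against WT mESCs (adjusted p = 0.141) and −0.0038 on the RMES mouse allele (adjusted p = 0.963), so it did not pass where Gata3 rose. The gene 4930412O13Rik, 8.8 kb from the Gata3 start, was called higher on the RMES mouse allele (6.73, adjusted p = 0.000295) and was not tested in mESCs. Near Gata2, Rpn1 was 0.02 in mCdx2-OE (adjusted p = 0.805) and Rab7 −0.12 (adjusted p = 0.317). Near Gata4, Fam167a was higher (1.38, adjusted p = 0.0017) and Neil2 lower (−1.55, adjusted p = 4.26e-07) in mCdx2-OE. These neighbours within 200 kb were picked after the data were seen.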
